A study of Mus musculus with 12 samples.

Results

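Toll-like receptors are the membrane sensors with which dendritic cells and macrophages detect microbial lipids, proteins and nucleic acids. They were described here together with the proteins that help them bind ligand and the proteins that carry their signal into the cell. The set was written as 32 genes and chosen by name and role rather than by a threshold on these values, and 28 of them were found among the 19938 genes with a probe set of 1 symbol. Tlr5, Tlr11, Irak4 and Traf3 were not analysed here. The 28 comprised 4 receptors of the cell surface, 6 endosomal receptors, 5 co-receptors and chaperones, 4 adaptors with a Toll/interleukin-1 receptor (TIR) domain, 4 members of the IRAK group, and 5 ligases and kinases further down.

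RNA came from C57B/6 mouse bone marrow of the tibia and femur, grown for 6 days with 20 ng/ml recombinant GM-CSF, which drives myeloid growth, and was measured on Affymetrix Mouse Gene 1.0 arrays. Every group shares this GM-CSF culture. Cells labelled dendritic (GM-DC) or macrophage (GM-MF) were either left without stimulus or given 10 ng/ml lipopolysaccharide (LPS) for 4 hours, with 3 arrays in each of the 4 groups and 12 in all. The labels do not say how the cell types were separated, give the age or sex of the mice, or say whether arrays of a group came from separate mice or cultures, so the p-values reflect how far these arrays scatter, and that scatter may be technical.

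In the textbook account, LPS is passed by CD14 to TLR4 bound to MD-2, the product of Ly96. The receptor then signals from the plasma membrane through TIRAP and MyD88, and from endosomes through TRAM (Ticam2) and TRIF (Ticam1). The MyD88 branch runs through IRAK kinases, TRAF6, and the kinase TAK1 (Map3k7) with its partner TAB2 to NF-kB, and the TRIF branch through TRAF3 and the kinases TBK1 and IKK-epsilon (Ikbke) to interferon regulatory factors. Nucleic acid receptors such as TLR3, TLR7, TLR8, TLR9 and TLR13 reach the endosome with the chaperone UNC93B1.

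Values are log2 expression as deposited, so 1 unit is 2-fold. Differences are given with limma's standard error, levels with the SD over 3 arrays, and a gene was called at a limma p-value below 0.05 after Benjamini-Hochberg adjustment over all 19938 genes. Within a group, array pairs had correlations of 0.993 to 0.996 over the genes, though genes do not count as independent replicates. The labels were checked against marker lists. Of 7 dendritic cell markers 6 were higher in GM-DC without LPS and 6 with LPS, and their summed linear signal ran from 9891 to 11490 on unstimulated GM-DC arrays and from 268 to 474 on unstimulated GM-MF arrays. The exception, Kmo, lay under the array median in all 4 groups. Ccr7, Fscn1 and Cd83, with means of 12.05, 11.80 and 10.82, carried most of the summed signal in unstimulated GM-DC. These 3 and Zbtb46 rose with LPS in GM-MF (3 of the 4 by 2-fold or more, at most 2.47), while 0 of the 7 were called with LPS in GM-DC. The list therefore changed with LPS in GM-MF and does not follow the cell label alone. All 6 measured macrophage markers were higher in GM-MF in both conditions, with summed signals of 5416 to 6478 in unstimulated GM-MF and 270.2 to 291 in unstimulated GM-DC. In GM-DC 3 of these 6 were called with LPS, Adgre1 (1.24) and Mertk higher and Csf1r (-1.62) lower. In GM-MF 2 were called with LPS, Mertk higher and Csf1r (-0.93) lower, so this list changed with LPS too. With LPS the summed signals were 11320 to 11510 in GM-DC and 817 to 1573 in GM-MF for the dendritic cell markers, and 267 to 329 in GM-DC and 4678 to 5513 in GM-MF for the macrophage markers. In RNA from many cells, fewer cells with a transcript and less transcript per cell cannot be told apart.

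Promoter sequence of the members was searched for 3 short motifs. RefSeq promoters of assembly GRCm38.p6 were read for 22 of the 28 members, as 29 promoters, and the 250 bases before each start were searched on both strands. Tlr4, Tlr7, Cd14, Ly96, Unc93b1 and Ticam2 were not searched. The motifs were kB-like (GGG and TTCC with any 3 bases between), a form of the NF-kB site, ISRE-like (GAAA and GAAA with any 2 bases between), a form of the interferon-stimulated response element, and PU.1-like (GAGGAAGT), a form of the site of a myeloid factor. They were spelled out after values of these genes had been seen. A match was present in 4 of the 29 promoters (13.8%) for kB-like, 2 (6.9%) for ISRE-like and 1 (3.45%) for PU.1-like, and in 4.65%, 2.98% and 2.44% of all 32851 promoters of the same length. These shares are a description of letters, not of binding. The 30-base stretches with a match are shown for receptors and Myd88, whose levels parted the cell types, with the match in capitals, 5′ to 3′ along the gene's strand. Each comes from the minus strand and lies within the annotated span of its own gene, apart from that of Myd88.
Tlr1, PU.1-like, chr5:64933563-64933592: attaaatgttgGAGGAAGTaggagcttgaa
Tlr2, kB-like, chr3:83841762-83841791: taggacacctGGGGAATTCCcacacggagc
Tlr3, kB-like, chr8:45410572-45410601: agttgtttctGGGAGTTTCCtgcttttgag
Tlr6, kB-like, chr5:64960128-64960157: tttatacacgGGGTAATTCCaacgagtacc
Tlr6, ISRE-like, chr5:64959260-64959289: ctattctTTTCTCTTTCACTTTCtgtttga
Myd88, ISRE-like, chr9:119340039-119340068: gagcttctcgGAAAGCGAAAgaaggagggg

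The Tlr6 stretch with ISRE-like letters holds 2 overlapping matches, both read on the opposite strand. The remaining kB-like match lay in the promoter of Map3k7, whose expression was not called in any comparison. The promoter of Ikbke, the member with the largest rise with LPS in GM-DC, held none of these letters in its 250 bases. For Myd88, which rose with LPS in both cell types, the 250 bases before the start lie outside every annotated gene, on the minus strand at chr9:119340019-119340268, and are shown whole because Myd88 is the adaptor shared by most of these receptors, with the ISRE-like match in capitals.
Myd88 promoter: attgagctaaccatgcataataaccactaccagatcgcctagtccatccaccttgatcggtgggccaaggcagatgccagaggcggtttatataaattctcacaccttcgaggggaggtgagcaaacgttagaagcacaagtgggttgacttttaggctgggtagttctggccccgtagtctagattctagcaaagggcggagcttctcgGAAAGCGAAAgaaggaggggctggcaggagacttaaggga

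The first comparison asks how the sensing machinery of GM-DC and GM-MF differs before any stimulus. Most of it was more abundant in GM-MF. Of the 28 members 19 were lower and 6 higher in GM-DC, and Ly96, Tollip and Map3k7 did not pass, so 25 (89.29%) were called against 34.2% of all genes. Lower in GM-DC were 16.2% and higher were 18.0% of all genes. In a fit of only the 10182 genes with a mean above the median over genes and arrays, 6346 were called (3001 lower, 3345 higher). Those 10182 are named the higher-signal genes below. At 2-fold or more, 16 members were lower and 2 higher, against 7.02% and 5.69% of all genes. The 3 arrays of GM-DC did not overlap the 3 of GM-MF for 27 members, against 44.4% of all genes. The median difference of the members was -2.0 and that of all genes was -0.01.

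**Figure D1:**
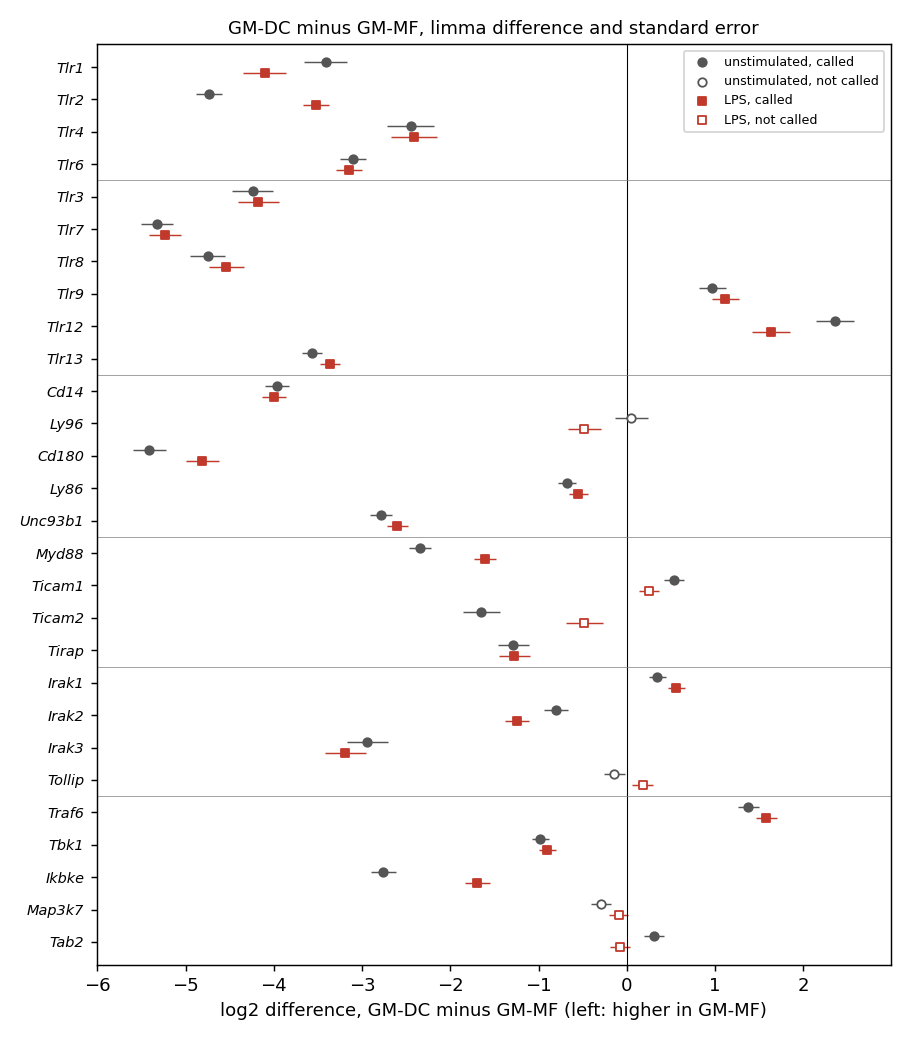
Difference GM-DC minus GM-MF (x axis, log2) of the 28 members without LPS (grey circles) and with LPS (red squares), with limma's standard error, 3 arrays per group; filled symbols are called genes and horizontal lines part the roles. Most symbols lie left of 0, and Tlr9, Tlr12, Irak1 and Traf6 lie right of 0 with filled symbols in both conditions.

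The 4 surface receptors were all lower in GM-DC. Tlr2, which senses bacterial lipoproteins as a dimer with TLR1 or TLR6, stood at 6.23, 6.46 and 6.43 in unstimulated GM-DC, 7.77, 8.01 and 7.33 in GM-DC with LPS, 11.08, 11.10 and 11.14 in unstimulated GM-MF and 11.18, 11.14 and 11.35 in GM-MF with LPS. The GM-DC arrays lay below every GM-MF array, and the difference was -4.73 ± 0.14 (26.6-fold, limma adjusted p = 2.64e-12) without LPS. Its partner Tlr1 stood at 3.82, 4.09 and 4.04 in unstimulated GM-DC, 4.37, 4.32 and 4.17 in GM-DC with LPS, 7.18, 6.90 and 8.12 in unstimulated GM-MF and 8.19, 8.20 and 8.78 in GM-MF with LPS. Tlr6, the alternative partner and the neighbour of Tlr1 in the genome, stood at 4.43, 4.96 and 4.67 in unstimulated GM-DC, 5.05, 5.19 and 4.72 in GM-DC with LPS, 7.68, 7.78 and 7.90 in unstimulated GM-MF and 8.17, 7.94 and 8.29 in GM-MF with LPS. The groups of the cell types did not overlap for either gene, and the differences were -3.41 ± 0.24 for Tlr1 and -3.10 ± 0.15 for Tlr6 without LPS. All 6 GM-DC values of Tlr1 and 3 of 6 of Tlr6 lay under the median of their array, which ran from 4.72 to 4.87 over genes. No background call was made, so folds against such values are ratios of signals whose lower side is not shown to exceed background. TLR1 and TLR6 are close paralogs, and whether their probe sets share signal was not tested.

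Tlr4, the LPS receptor itself, stood at 6.65, 6.65 and 5.79 in unstimulated GM-DC, 5.88, 5.86 and 5.04 in GM-DC with LPS, 8.91, 8.52 and 9.01 in unstimulated GM-MF and 8.27, 7.60 and 8.15 in GM-MF with LPS. The lowest GM-MF array, 7.60, lay above the highest GM-DC array, 6.65. GM-DC were lower by 5.46-fold without LPS (log2 -2.45 ± 0.26, limma adjusted p = 2.05e-06) and the difference with LPS was -2.41 ± 0.26. Within GM-DC, replicate 3 was the lowest array in both conditions.

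**Figure D2:**
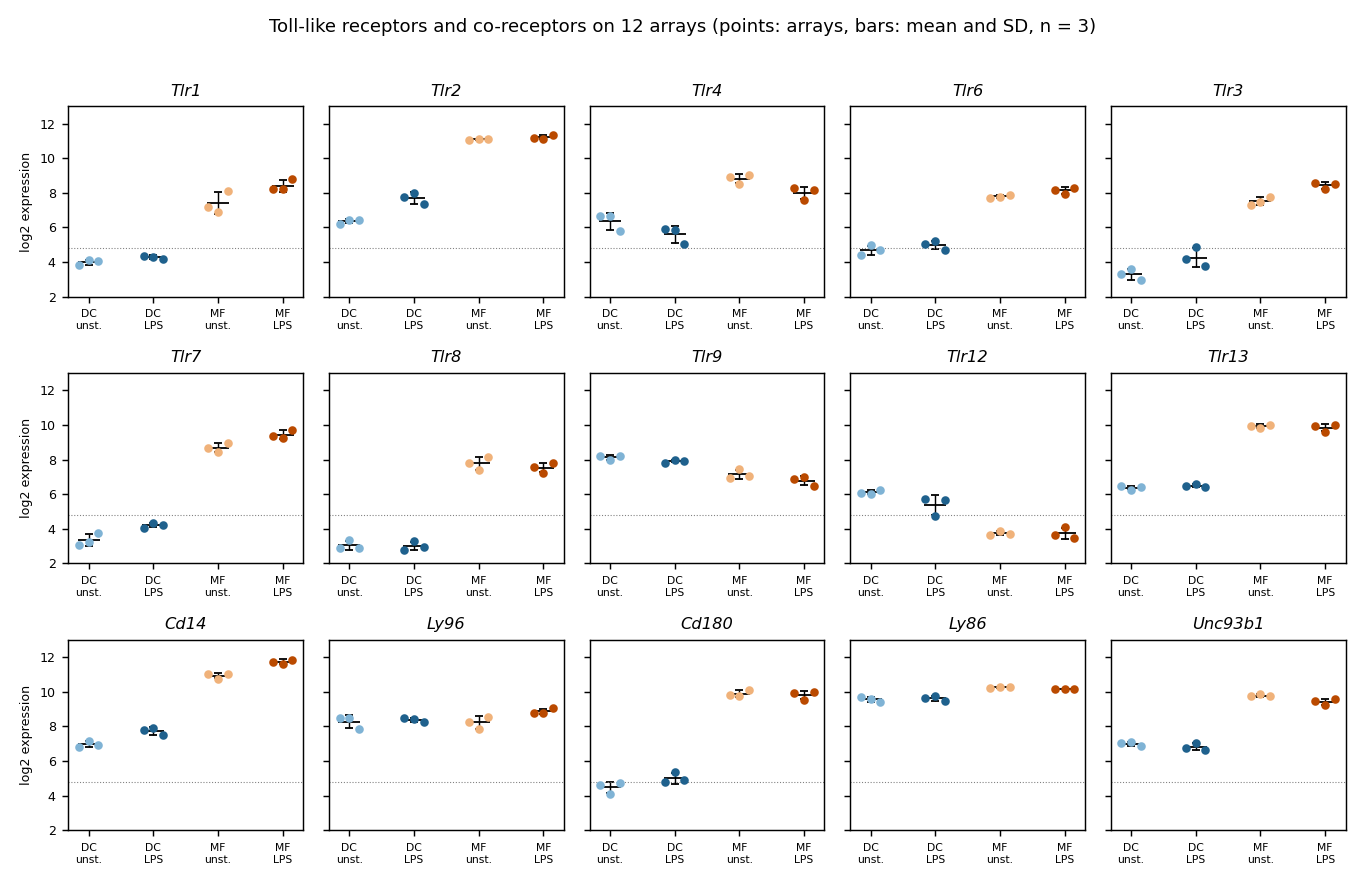
Log2 expression (y axis) of the 10 receptors and 5 co-receptors and chaperones in the 4 groups (x axis); points are arrays, bars the mean and SD of 3 arrays, and the dotted line the mean of the array medians over genes. GM-MF arrays lie above GM-DC arrays in most panels, Tlr9 and Tlr12 run the other way, and the unstimulated groups of Ly96 overlap.

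The partners of TLR4 differed in this comparison. Cd14, the surface protein that hands LPS to the receptor, stood at 6.83, 7.18 and 6.94 in unstimulated GM-DC, 7.82, 7.91 and 7.50 in GM-DC with LPS, 11.02, 10.75 and 11.06 in unstimulated GM-MF and 11.75, 11.59 and 11.87 in GM-MF with LPS, with a difference of -3.96 ± 0.14 (15.6-fold, limma adjusted p = 7.52e-12) without LPS. Every GM-DC array lay well below every GM-MF array. Ly96, which encodes MD-2, the subunit of the receptor that binds the lipid, stood at 8.47, 8.52 and 7.87 in unstimulated GM-DC, 8.47, 8.46 and 8.26 in GM-DC with LPS, 8.29, 7.84 and 8.57 in unstimulated GM-MF and 8.78, 8.80 and 9.06 in GM-MF with LPS. Its unstimulated groups overlapped, and the difference was 0.05 ± 0.19 (limma adjusted p = 0.884). With LPS it was -0.48 ± 0.19 (adjusted p = 0.0591), which passed without GM-DC unstimulated replicate 3 (0.0253), GM-MF unstimulated replicate 2 (0.0303) or GM-MF unstimulated replicate 3 (0.0417), and under 4 of 8 other settings (0.00858 to 0.0461). Thus Tlr4 and Cd14 were called lower in GM-DC in both conditions and Ly96 in neither, though a p that misses the threshold does not show equal levels.

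A second pair, CD180 (RP105) with MD-1, the product of Ly86, resembles TLR4 with MD-2 but lacks a TIR domain. Cd180 stood at 4.59, 4.12 and 4.73 in unstimulated GM-DC, 4.76, 5.38 and 4.91 in GM-DC with LPS, 9.80, 9.77 and 10.11 in unstimulated GM-MF and 9.92, 9.55 and 10.02 in GM-MF with LPS. This was the largest difference among the members without LPS, -5.41 ± 0.19 (42.6-fold, limma adjusted p = 7.42e-12), with all 3 unstimulated GM-DC arrays under the array median. Ly86 stood at 9.71, 9.59 and 9.42 in unstimulated GM-DC, 9.65, 9.75 and 9.47 in GM-DC with LPS, 10.22, 10.27 and 10.27 in unstimulated GM-MF and 10.16, 10.16 and 10.19 in GM-MF with LPS. Its groups did not overlap either, but the difference was -0.68 ± 0.10, or 1.60-fold. In both pairs the receptor differed between the cell types by more than the secreted partner, a description of these 4 genes that was not tested. CD180 is also a B cell protein. Of 5 measured B cell markers 0 were called by limma without LPS (1, Cd79b, at an unadjusted p below 0.05) and 1, Cd79b, was higher in GM-DC with LPS. Their summed signal was 73.7 to 82.9 in unstimulated GM-DC and 62.4 to 73.5 in unstimulated GM-MF, and with LPS 79.6 to 92.7 and 66.1 to 68.2. Under the array median lay 4 of the 5 in GM-DC and 5 of 5 in GM-MF. The part of B cells in the Cd180 difference was not tested.

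Endosomal receptors divided in direction: 4 of 6 were lower and 2 higher in GM-DC in both conditions. Tlr7, a sensor of single-stranded RNA, stood at 3.07, 3.22 and 3.78 in unstimulated GM-DC, 4.07, 4.31 and 4.25 in GM-DC with LPS, 8.69, 8.42 and 8.95 in unstimulated GM-MF and 9.39, 9.24 and 9.71 in GM-MF with LPS. Tlr8, its neighbour on the X chromosome and also a receptor of the single-stranded RNA family, stood at 2.91, 3.34 and 2.90 in unstimulated GM-DC, 2.79, 3.28 and 2.94 in GM-DC with LPS, 7.79, 7.43 and 8.18 in unstimulated GM-MF and 7.58, 7.25 and 7.80 in GM-MF with LPS. All 12 GM-DC values of the 2 genes lay under the array median, and the differences without LPS were -5.33 ± 0.18 and -4.75 ± 0.20. Tlr3, the sensor of double-stranded RNA, stood at 3.30, 3.59 and 2.95 in unstimulated GM-DC, 4.15, 4.87 and 3.76 in GM-DC with LPS, 7.32, 7.48 and 7.75 in unstimulated GM-MF and 8.58, 8.19 and 8.52 in GM-MF with LPS, with a difference of -4.24 ± 0.23. Tlr13, which recognises bacterial ribosomal RNA in mice, stood at 6.45, 6.27 and 6.43 in unstimulated GM-DC, 6.49, 6.58 and 6.41 in GM-DC with LPS, 9.95, 9.85 and 10.03 in unstimulated GM-MF and 9.92, 9.62 and 10.03 in GM-MF with LPS. Its GM-DC values were above the array median throughout, and GM-DC were 11.8-fold lower without LPS (log2 -3.56 ± 0.11, limma adjusted p = 4.5e-12).

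The exceptions were Tlr9 and Tlr12. Tlr9, the receptor of unmethylated CpG DNA, stood at 8.21, 7.97 and 8.19 in unstimulated GM-DC, 7.83, 7.97 and 7.92 in GM-DC with LPS, 6.95, 7.45 and 7.06 in unstimulated GM-MF and 6.87, 7.02 and 6.48 in GM-MF with LPS. Every GM-DC array lay above every GM-MF array, by 0.97 ± 0.15 (1.96-fold, limma adjusted p = 8.05e-05) without LPS and 1.12 ± 0.15 (2.17-fold) with LPS. Tlr12, a sensor of the profilin of parasites such as Toxoplasma, stood at 6.09, 6.02 and 6.24 in unstimulated GM-DC, 5.75, 4.73 and 5.64 in GM-DC with LPS, 3.65, 3.89 and 3.72 in unstimulated GM-MF and 3.63, 4.10 and 3.49 in GM-MF with LPS. All GM-MF values of Tlr12 were under the array median, and GM-DC were higher by 2.36 ± 0.22 (5.14-fold, limma adjusted p = 4.12e-07) without LPS and 1.63 ± 0.22 with LPS. Unc93b1, the chaperone of the nucleic acid receptors, did not follow Tlr9: it stood at 7.04, 7.10 and 6.88 in unstimulated GM-DC, 6.78, 7.07 and 6.67 in GM-DC with LPS, 9.74, 9.86 and 9.77 in unstimulated GM-MF and 9.49, 9.25 and 9.57 in GM-MF with LPS, and was 6.90-fold lower in GM-DC without LPS (log2 -2.79 ± 0.12).

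Tlr9 and Tlr12 are known from other dendritic cells, so marker lists of those cells are given beside them. Of 4 measured plasmacytoid dendritic cell markers 1 (Pacsin1) was higher and 2 (Ccr9 and Tcf4) lower in GM-DC without LPS, with summed signals of 396.7 to 439.9 in GM-DC and 447 to 556 in GM-MF. With LPS these were 704 to 997 and 744 to 784. Of 6 conventional type 1 dendritic cell markers Irf8 and Batf3 were higher and Clec9a and Wdfy4 lower in GM-DC in both conditions, with summed signals of 2137 to 2620 in GM-DC and 560 to 601 in GM-MF without LPS, and 2052 to 2392 and 939 to 1107 with LPS. Irf8 and Batf3, with means of 10.71 and 9.15, carried most of the sum in unstimulated GM-DC, where Xcr1 and Clec9a lay under the array median. In GM-MF Irf8 rose with LPS (1.62), while Batf3 and Clec9a fell. No marker can be given as at 0, since array signals have no true zero. The part of these cells in the Tlr9 and Tlr12 differences was not tested.

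Among the TIR adaptors, Myd88, used by nearly all of these receptors, stood at 7.18, 7.02 and 7.34 in unstimulated GM-DC, 8.41, 8.57 and 8.11 in GM-DC with LPS, 9.42, 9.67 and 9.48 in unstimulated GM-MF and 9.98, 9.95 and 9.98 in GM-MF with LPS. Even the GM-DC arrays with LPS lay below the unstimulated GM-MF arrays, and the cell types differed by -2.34 ± 0.13 (5.08-fold, limma adjusted p = 8.18e-10) without LPS and -1.61 ± 0.13 with LPS. Tirap, which brings MyD88 to TLR2 and TLR4 at the membrane, stood at 5.54, 5.35 and 5.01 in unstimulated GM-DC, 5.48, 5.58 and 5.25 in GM-DC with LPS, 6.79, 6.37 and 6.61 in unstimulated GM-MF and 7.02, 6.35 and 6.75 in GM-MF with LPS, a difference of -1.29 ± 0.18 without and -1.28 ± 0.18 with LPS. For the TRIF branch, Ticam2, which links TLR4 to TRIF in endosomes, stood at 6.03, 5.67 and 5.25 in unstimulated GM-DC, 6.61, 6.53 and 5.91 in GM-DC with LPS, 7.29, 7.59 and 7.01 in unstimulated GM-MF and 6.87, 6.94 and 6.68 in GM-MF with LPS. GM-DC were lower by 3.13-fold without LPS (log2 -1.65 ± 0.21, limma adjusted p = 1.22e-05). With LPS the difference was -0.48 ± 0.21 (adjusted p = 0.0935), which passed with the replicate block (0.0112) and after cyclic loess (0.0221). Without GM-DC LPS replicate 3 it was -0.26 (adjusted p = 0.388). Ticam1, which encodes TRIF, the adaptor of TLR3 and endosomal TLR4, was higher in GM-DC without LPS, at 8.08 ± 0.05 against 7.54 ± 0.11 in GM-MF (difference 0.54 ± 0.11, limma adjusted p = 0.00119). With LPS it stood at 7.55 ± 0.09 and 7.29 ± 0.20 and did not pass (adjusted p = 0.0963, and 0.0296 without GM-MF LPS replicate 1).

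In the IRAK group the member known as a brake differed most. Irak3 (IRAK-M), which restrains signalling and is known from macrophages, stood at 6.52, 6.32 and 5.61 in unstimulated GM-DC, 6.44, 6.60 and 5.76 in GM-DC with LPS, 9.17, 9.10 and 9.0 in unstimulated GM-MF and 9.53, 9.14 and 9.70 in GM-MF with LPS. GM-DC were 7.67-fold lower without LPS (log2 -2.94 ± 0.23, limma adjusted p = 7.32e-08) and the difference with LPS was -3.19 ± 0.23. As for Tlr4, replicate 3 was the lowest GM-DC array in both conditions. Irak2, a kinase that sustains the MyD88 signal, stood at 7.82, 7.67 and 7.65 in unstimulated GM-DC, 7.54, 7.50 and 7.26 in GM-DC with LPS, 8.57, 8.43 and 8.55 in unstimulated GM-MF and 8.65, 8.39 and 9.0 in GM-MF with LPS, a difference of -0.80 ± 0.14 without and -1.25 ± 0.14 with LPS. Irak1, an early kinase of the complex, was higher in GM-DC in both conditions, by 0.35 ± 0.10 and 0.56 ± 0.10, with levels of 7.55 ± 0.03 in unstimulated GM-DC and 7.20 ± 0.11 in unstimulated GM-MF. Tollip, an adaptor that binds IRAK1, was not called in any comparison and its group means ran from 7.79 to 8.04.

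Among ligases and kinases, Traf6, the ubiquitin ligase on which the MyD88 branch converges, was higher in GM-DC, unlike Myd88. It stood at 8.63, 8.65 and 8.58 in unstimulated GM-DC, 8.99, 8.95 and 8.87 in GM-DC with LPS, 7.26, 7.46 and 7.0 in unstimulated GM-MF and 7.43, 7.39 and 7.23 in GM-MF with LPS. The GM-DC arrays lay above all GM-MF arrays, by 1.38 ± 0.12 (2.60-fold, limma adjusted p = 1.26e-07) without LPS and 1.58 ± 0.12 (3.0-fold) with LPS. Ikbke, the inducible kinase of the TRIF branch, stood at 5.22, 5.4 and 5.12 in unstimulated GM-DC, 6.92, 7.01 and 6.46 in GM-DC with LPS, 7.97, 7.88 and 8.16 in unstimulated GM-MF and 8.50, 8.54 and 8.44 in GM-MF with LPS, and differed by -2.76 ± 0.14 (6.77-fold) without and -1.69 ± 0.14 (3.23-fold) with LPS. Tbk1, the related kinase that is expressed without stimulus, differed less, -0.98 ± 0.09 and -0.90 ± 0.09, with group means from 8.31 ± 0.06 to 9.56 ± 0.03. Tab2, the partner of TAK1, was higher in GM-DC without LPS by 0.31 ± 0.11 (limma adjusted p = 0.0449). That call was lost without any of GM-DC unstimulated replicates 1 and 3, GM-MF unstimulated replicates 1 and 2, GM-DC LPS replicates 1, 2 and 3, or GM-MF LPS replicate 3 (0.0519 to 0.204), and under cyclic loess, median centring and a fit of only the arrays compared. Map3k7, which encodes TAK1, did not pass at -0.29 ± 0.11 (adjusted p = 0.0504), passed under 5 of 8 other settings (0.0217 to 0.0492, and 0.043 with the replicate block) and without GM-MF LPS replicate 3 (0.0413), and had group means from 8.0 to 8.30.

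**Figure D3:**
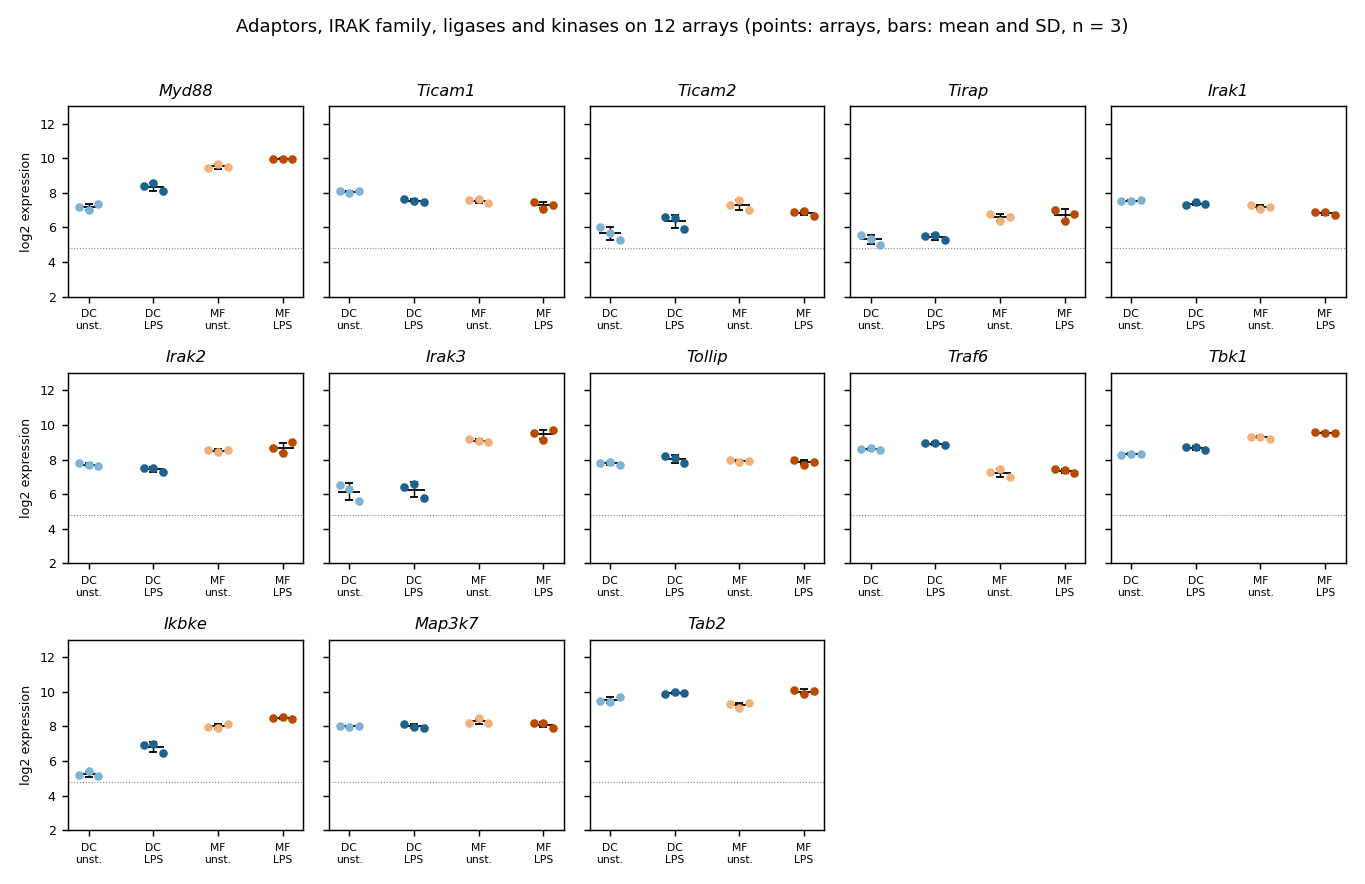
Log2 expression (y axis) of the 13 adaptors, IRAK group members, ligases and kinases in the 4 groups (x axis), drawn like the panels of the receptors, with points for arrays and bars for the mean and SD of 3 arrays. Irak3 and Ikbke are low in GM-DC, Traf6 is higher in GM-DC, and the Tollip and Map3k7 panels are near level.

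With LPS in both cell types, 18 of the 28 members were lower and 4 higher in GM-DC, and 6 did not pass, so 22 (78.57%) were called against 36.3% of all genes (15.4% lower, 20.9% higher). At 2-fold or more 16 were lower and 3 higher, against 6.50% and 6.40% of all genes, and the groups of 25 did not overlap, against 44.9%. Of the 10182 higher-signal genes 6551 were called (2673 lower, 3878 higher). The same 18 genes were lower in GM-DC in both conditions, the same 4 (Tlr9, Tlr12, Irak1 and Traf6) were higher in both, and 0 were called in opposite directions. The shares of all genes with these joint patterns are not given here, so these joint counts only describe the members. The calls of Ticam1, Ticam2 and Tab2 were present only without LPS in the fit of all arrays, and the differences that changed by a test are given with the interaction.

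The next comparison asks what 4 hours of LPS did to the receptors in GM-DC. The cells responded: 6 of 6 LPS-induced cytokine genes rose in GM-DC and 6 of 6 in GM-MF, with medians of 2.28 and 2.62. The similar medians hide unlike responses, since the interaction was called for 5 of the 6. It was positive for Cxcl10 and Tnf and negative for Il6, Il12b and Ifnb1 (lowest -4.23). Mean Ifnb1 went from 3.01 to 3.94 in GM-DC, with all 3 LPS arrays under the array median, and from 4.51 to 7.46 in GM-MF. Of the 28 members 9 rose and 2 fell in GM-DC, and 17 did not pass, so 11 (39.29%) were called against 9.72% of all genes (5.23% higher, 4.49% lower). At 2-fold or more 3 rose (Ikbke, Tlr2 and Myd88) and 0 fell, against 1.65% and 0.431% of all genes, and the groups of 16 did not overlap, against 24.3%. In GM-MF 8 rose and 2 fell, so 10 (35.71%) were called against 17.4% (6.54% higher, 10.8% lower), and 0 reached 2-fold in either direction, against 1.80% higher and 1.37% lower. The groups of 17 did not overlap there, against 31.5% of all genes. Of the 10182 higher-signal genes 2216 were called in GM-DC and 3629 in GM-MF. In GM-MF that was about the share of the members. After cyclic loess 10 members rose and 0 fell in GM-MF, and 52.4% of all genes called were higher, against 37.7% as deposited. The count of 11 in GM-DC was 6 in a fit of only the arrays compared, 6 without GM-DC LPS replicate 2 and 7 without GM-DC unstimulated replicate 2. The count of 10 in GM-MF was 4 without GM-MF unstimulated replicate 1, 6 without GM-MF LPS replicate 1 and 5 without GM-MF LPS replicate 3.

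**Figure D4:**
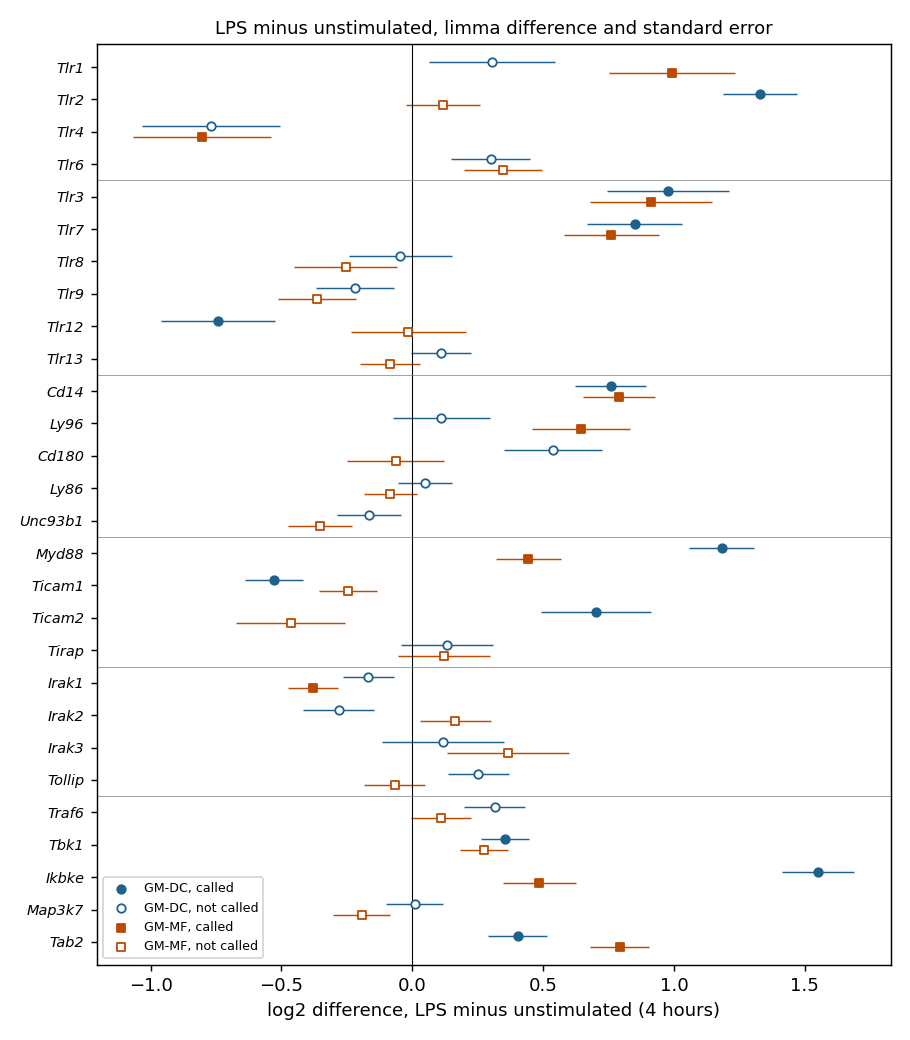
LPS minus unstimulated (x axis, log2) of the 28 members in GM-DC (blue circles) and GM-MF (orange squares), with limma's standard error, 3 arrays per group; filled symbols are called genes. Tlr3, Tlr7, Cd14, Myd88, Ikbke and Tab2 have filled symbols right of 0 in both cell types, and the GM-DC symbols of Tlr2, Myd88 and Ikbke lie beyond 1.

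Of the members, 6 rose in both cell types, namely Tlr3, Tlr7, Cd14, Myd88, Ikbke and Tab2. The share of all genes that rose in both is not given here, so this count only describes the members. Tlr3 rose by 0.98 ± 0.23 in GM-DC and 0.91 ± 0.23 in GM-MF, and Tlr7 by 0.85 ± 0.18 and 0.76 ± 0.18. The arrays listed above show no overlap between LPS and unstimulated arrays for these 2 RNA sensors, but in GM-DC 5 of 6 values of Tlr3 and 6 of 6 of Tlr7 stayed under the array median. The Tlr3 call was lost in GM-DC without GM-DC unstimulated replicate 3 (0.0612) or GM-DC LPS replicate 2 (0.0591) and in a fit of only the arrays compared (0.0576), and in GM-MF without replicate 1 of either GM-MF group (0.059 unstimulated, 0.0525 LPS). Cd14 rose by 0.76 ± 0.14 in GM-DC (limma adjusted p = 0.00185) and 0.79 ± 0.14 in GM-MF (0.000736), while its level before LPS differed by -3.96 ± 0.14 between them. Tab2 rose by 0.40 ± 0.11 and 0.79 ± 0.11, to 9.94 ± 0.05 and 10.02 ± 0.13. Its GM-DC call was lost without GM-DC unstimulated replicates 1 or 2 or GM-DC LPS replicates 1, 2 or 3 (0.0713 to 0.162) and under 3 of 9 other settings (0.0601 to 0.07).

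Tlr4 itself was lower after LPS in every pair of arrays with the same replicate number. In GM-DC the groups overlapped, since unstimulated replicate 3 lay below LPS replicates 1 and 2, and in GM-MF they did not. Arrays of the same replicate number deviated together within a cell type, in GM-DC mainly through replicate 3, and LPS minus unstimulated by number was -0.77, -0.78 and -0.75 in GM-DC and -0.64, -0.91 and -0.86 in GM-MF. The 3 steps of GM-DC were alike although the levels of replicate 3 were lower. In GM-MF Tlr4 fell by 0.80 ± 0.26 (limma adjusted p = 0.0487), a call that was lost without GM-DC unstimulated replicate 2, GM-MF unstimulated replicates 1 or 3, GM-DC LPS replicate 2 or GM-MF LPS replicates 1, 2 or 3 (0.0501 to 0.204) and under 4 of 9 other settings (0.0567 to 0.091). In GM-DC the difference was -0.77 ± 0.26 and did not pass (adjusted p = 0.092). It passed without GM-DC unstimulated replicate 3 (0.015). With the number as a block within each cell type, chosen after seeing the data, the fall passed in GM-DC (limma adjusted p = 0.000482) and in GM-MF (0.000192). The interaction was 0.04 ± 0.37 without the block (limma adjusted p = 0.984).

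The other members of the receptor complex and its adaptors moved in different directions. Ly96 rose in GM-MF by 0.64 ± 0.19 (limma adjusted p = 0.026, lost without GM-MF unstimulated replicates 1 or 2 or GM-MF LPS replicate 3, 0.0574 to 0.115), while its difference in GM-DC was 0.11 ± 0.19 (adjusted p = 0.849). Ticam1 fell in GM-DC by 0.53 ± 0.11 (adjusted p = 0.00593), where LPS and unstimulated arrays did not overlap, and its difference in GM-MF was -0.25 ± 0.11 (adjusted p = 0.17). Tlr1 rose in GM-MF by 0.99 ± 0.24 (adjusted p = 0.0089, and 0.0533 without GM-MF LPS replicate 3) and its difference in GM-DC was 0.30 ± 0.24. Irak1 fell in GM-MF by 0.38 ± 0.10 (adjusted p = 0.0123), and lost its call without GM-MF unstimulated replicate 1 (0.0636) or GM-MF LPS replicate 3 (0.0614) and after quantile normalization (0.0563) or cyclic loess (0.052). Tlr12 fell in GM-DC by 0.74 ± 0.22 (adjusted p = 0.046), and its difference was -0.42 without GM-DC LPS replicate 2, the lowest array (4.73). That call was lost without GM-DC unstimulated replicates 1, 2 or 3, GM-MF unstimulated replicates 1, 2 or 3, GM-DC LPS replicate 2 or GM-MF LPS replicate 1 (0.0547 to 0.174) and under 4 of 8 other settings (0.0545 to 0.104), the replicate block over all arrays (0.067) among them.

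Tbk1 rose in GM-DC by 0.35 ± 0.09 (limma adjusted p = 0.0228) and lost its call without replicates 1 or 2 of either GM-DC group (0.0595 to 0.108) and in a fit of only the arrays compared (0.0648). In GM-MF its difference was 0.27 ± 0.09 (adjusted p = 0.0537), which passed under 4 of 9 other settings (0.00935 to 0.0467) and without GM-DC LPS replicate 3 (0.0425). Unc93b1 did not pass in GM-MF at -0.35 ± 0.12 (adjusted p = 0.0636), but passed with the block within each cell type (0.0447), under 3 other settings and without GM-DC LPS replicate 2 (0.0406). The other 12 members that were called in neither cell type were Tlr6, Tlr8, Tlr9, Tlr13, Cd180, Ly86, Tirap, Irak2, Irak3, Tollip, Traf6 and Map3k7. Their differences ran from -0.37 (Tlr9 in GM-MF) to 0.54 (Cd180 in GM-DC), and Tlr6 passed in GM-MF after cyclic loess (0.0415).

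The interaction asks whether the LPS response differed between the cell types. It was called for 4 of 28 members (14.29%) against 7.59% of all genes, and each of the 4 had the more positive response in GM-DC, where 4.53% of all genes were called in that direction and 3.06% in the other. At 2-fold or more these were 3 members (Tlr2, Ticam2 and Ikbke) in that direction and 0 in the other, against 1.90% and 1.35% of all genes. Of the 10182 higher-signal genes 1763 were called for the interaction (1118 positive, 645 negative), a larger share than that of the members. Tlr2 rose by 1.33 ± 0.14 in GM-DC (limma adjusted p = 1.93e-05) and differed by 0.12 ± 0.14 in GM-MF (adjusted p = 0.688), an interaction of 1.21 ± 0.20 (adjusted p = 0.00137). Ikbke rose by 1.55 ± 0.14 and 0.49 ± 0.14, an interaction of 1.07 ± 0.20 (adjusted p = 0.00279), and its rise in GM-MF lost its call without replicates 1 or 2 of either GM-MF group (0.062 to 0.0806). Myd88 rose by 1.18 ± 0.13 and 0.44 ± 0.13, an interaction of 0.74 ± 0.18 (adjusted p = 0.018) that was lost without replicate 2 of either GM-DC group (0.053 unstimulated, 0.051 LPS). The Myd88 rise in GM-MF was lost without GM-MF unstimulated replicates 1 or 3 or GM-MF LPS replicates 1, 2 or 3 (0.0526 to 0.0937) and after quantile normalization (0.0558). For these 3 genes the GM-MF level without LPS was above the GM-DC level with LPS on every array. The interaction is the same contrast as the change of the difference between cell types, which for Tlr2 went from -4.73 to -3.52 and for Ikbke from -2.76 to -1.69.

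The response of Ticam2 had opposite signs in the cell types. LPS minus unstimulated by replicate number was 0.58, 0.86 and 0.66 in GM-DC and -0.42, -0.65 and -0.32 in GM-MF, so the 3 pairs were positive in GM-DC and negative in GM-MF. In GM-DC the rise was 0.70 ± 0.21 (limma adjusted p = 0.048) and in GM-MF the difference was -0.47 ± 0.21 (adjusted p = 0.166), an interaction of 1.17 ± 0.30 (adjusted p = 0.024). The difference in GM-MF passed with the replicate block over all arrays (limma adjusted p = 0.0267). A block by number within each cell type was chosen after seeing the data. With it the limma adjusted p-values were 0.00149 for the rise in GM-DC, 0.0091 for the fall in GM-MF and 0.000725 for the interaction. Without the block, the rise in GM-DC was lost without GM-DC unstimulated replicates 2 or 3, GM-MF unstimulated replicate 1, GM-DC LPS replicates 1 or 2 or GM-MF LPS replicates 1, 2 or 3 (0.0598 to 0.195), and in a fit of only the arrays compared (0.109). The interaction was lost without GM-DC unstimulated replicate 3, GM-MF unstimulated replicates 1 or 2, GM-DC LPS replicates 1 or 2 or GM-MF LPS replicate 3 (0.051 to 0.0683). The interaction of Tlr1, -0.69 ± 0.34 (adjusted p = 0.307), passed with that block (0.0454), and was -1.05 without GM-MF unstimulated replicate 3 (adjusted p = 0.014). The other interactions ran from -0.73 (Tlr12) to 0.60 (Cd180) and did not pass.

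**Figure D5:**
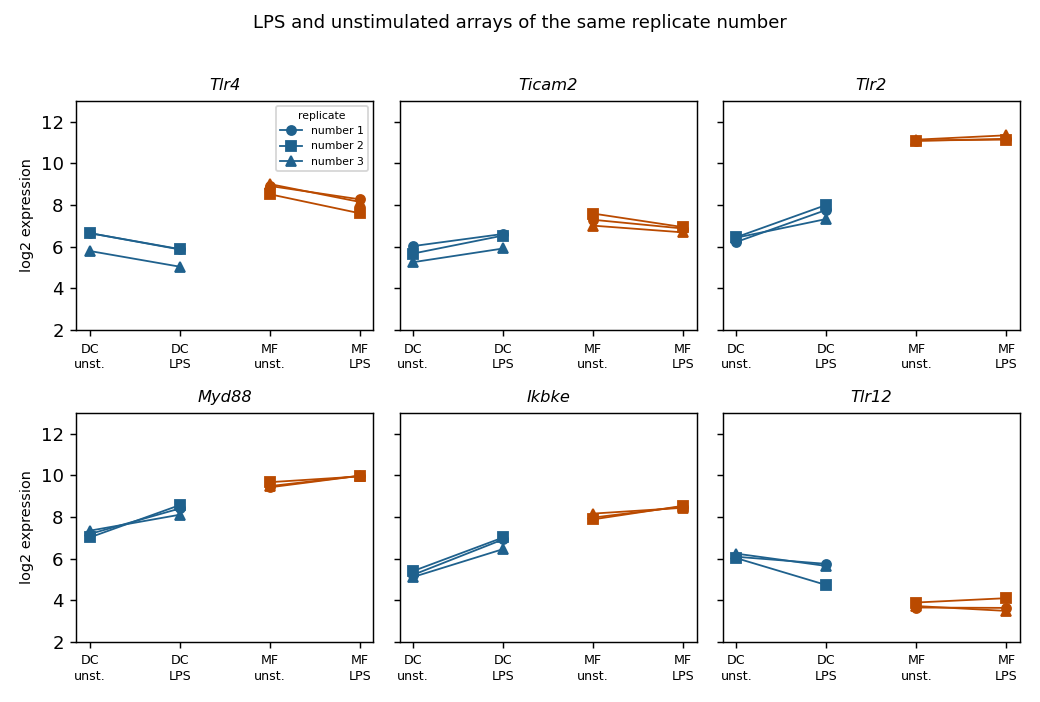
Log2 expression (y axis) of Tlr4, Ticam2, Tlr2, Myd88, Ikbke and Tlr12 without and with LPS (x axis) in GM-DC (blue) and GM-MF (orange); lines join arrays of the same replicate number, with a marker shape per number. Tlr4 lines slope down in both cell types, and Ticam2 lines slope up in GM-DC and down in GM-MF.

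Myd88, Ikbke, Tlr3 and Tlr7 are known to respond to interferons, so interferon-stimulated genes are given beside them. Of 10 measured, 9 were lower in GM-DC without LPS (median -4.66) and 10 with LPS (median -2.65). By their means, 5 of the 10 lay under the array median in unstimulated GM-DC, 1 in GM-DC with LPS and 0 in GM-MF. The interferon-stimulated genes rose in GM-DC (10 of 10, median 2.94) and in GM-MF (8 of 10, median 0.71), and the interaction was positive for 8 and negative for 1 (Mx1). Their summed signal ran from 1149 to 1211 in unstimulated GM-DC, 4881 to 6776 in GM-DC with LPS, 15160 to 16000 in unstimulated GM-MF and 26850 to 27260 in GM-MF with LPS, so unstimulated GM-MF exceeded stimulated GM-DC. The part of interferon in the values of the members was not tested.

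Other genes of the pathway were taken from 4 lists chosen by role, with results of these data already known. Their counts stand beside the shares of all genes called given above, 34.2% and 36.3% for the cell types, 9.72% and 17.4% for LPS, and 7.59% for the interaction. The shares among the higher-signal genes were larger in each of these comparisons. For folding, traffic and cleavage of the receptors, 2 of 14 were higher and 9 lower in GM-DC without LPS, and 4 and 8 with LPS. The cathepsins Ctsk (-4.72 ± 0.19) and Ctsl (-3.26 ± 0.14), proteases of the endolysosome, were lower without LPS, while Cnpy3 (0.69 ± 0.13), a chaperone that Toll-like receptors need to fold, and Ap3b1 (0.59 ± 0.10), a subunit of an adaptor of endosomal sorting, were higher. With LPS Ctsk (-5.54 ± 0.19) and Ctsl (-3.27 ± 0.14) were again lower and Cnpy3 (1.23 ± 0.13) higher. The mean of Ctsk lay under the array median in GM-DC in both conditions, so its differences carry the limit given for Tlr1. Nrros, a leucine-rich repeat protein of the endoplasmic reticulum, rose in GM-DC (1.05 ± 0.12) and fell in GM-MF (-1.20 ± 0.12), an interaction of 2.25 ± 0.17 (limma adjusted p = 1.55e-06), and with LPS was higher in GM-DC (1.65 ± 0.12). Cnpy3 fell in both cell types (-0.45 ± 0.13 and -0.98 ± 0.13) and Lrrc59 rose in GM-MF (0.62 ± 0.11). In all, 2 of 14 (14.29%) were called with LPS in GM-DC, against 9.72% of all genes, and 5 (35.71%) in GM-MF, against 17.4%. Of 5 genes of LPS capture outside the set, the scavenger receptors Msr1 (-5.55 ± 0.12), Cd36 (-1.99 ± 0.25) and Scarb1 (-1.83 ± 0.19) were lower in GM-DC without LPS, and they were lower with LPS too (-5.87 ± 0.12, -1.94 ± 0.25 and -1.60 ± 0.19). For LPS 0 of the 5 were called by limma in either cell type, with 1 (Msr1) in GM-DC and 0 in GM-MF at an unadjusted p below 0.05.

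Of 25 measured kinases, ligases and transcription factors downstream, 4 were higher and 13 lower in GM-DC without LPS, and 5 and 9 with LPS. Ikbkb (0.84 ± 0.12 without and 1.14 ± 0.12 with LPS), the catalytic subunit that activates NF-kB, was among those higher, as were Ube2v1 without LPS (0.67 ± 0.09) and Mapk8, the kinase JNK1, with LPS (1.02 ± 0.14). Irf7 (-5.44 ± 0.16 and -2.93 ± 0.16), a transcription factor of interferon genes, and Pik3ap1 (-3.72 ± 0.12 and -3.23 ± 0.12), a TIR-bearing adaptor of phosphoinositide 3-kinase, were the lowest. The mean of Irf7 lay under the array median in unstimulated GM-DC. With LPS 7 rose and 0 fell in GM-DC, led by Irf7 (3.31 ± 0.16), Map3k8 (1.55 ± 0.14), Map2k1 (0.94 ± 0.10) and Mapk8 (0.90 ± 0.14), kinases of the MAP kinase cascades apart from Irf7. In GM-MF 7 rose and 2 fell, with Peli1 (1.5 ± 0.09), a ubiquitin ligase that modifies IRAK1, and Map3k8 (0.95 ± 0.14) up, and Btk (-0.75 ± 0.19) and Irf3 (-0.53 ± 0.09) down. The interaction was called for Irf7 (2.51 ± 0.23), Mapk8 (1.05 ± 0.20) and Peli1 (-1.30 ± 0.13).

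Of 18 measured brakes on the pathway, 7 were higher and 7 lower in GM-DC without LPS (median 0.01), and 6 and 6 with LPS, and all genes were also divided about evenly (18.0% higher and 16.2% lower without LPS). Otud7b (1.92 ± 0.16 and 1.72 ± 0.16), a deubiquitinase, and without LPS Sigirr (1.28 ± 0.16), an inhibitory receptor with a TIR domain, were higher in GM-DC, as was Rnf216 with LPS (0.99 ± 0.11). The mean of Sigirr lay under the array median in GM-MF. Atf3 (-1.75 ± 0.16 and -2.88 ± 0.16), a repressor of cytokine genes, and without LPS Inpp5d (-1.08 ± 0.19), the phosphatase SHIP1, were lower, as was Socs1 with LPS (-2.27 ± 0.11). In GM-DC 5 rose and 3 fell with LPS, among them Zc3h12a (1.00 ± 0.15), an RNase that degrades cytokine messages, Nfkbia (0.90 ± 0.11), Atf3 (-1.01 ± 0.16) and Inpp5d (-1.01 ± 0.19). In GM-MF 7 rose and 1 fell, with Socs1 (1.88 ± 0.11) and Zc3h12a (1.60 ± 0.15) up and Inpp5d (-2.41 ± 0.19) down. The interaction was positive for Inpp5d (1.40 ± 0.27) and negative for 5 genes, led by Socs1 (-1.56 ± 0.16) and Atf3 (-1.12 ± 0.23). These 6 of 18 (33.33%) stand against 7.59% of all genes and 1763 of the 10182 higher-signal genes.

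Neutrophil and monocyte markers were also compared, because CD14 and TLR2 are carried by such cells. Of 8 neutrophil markers 1 was higher (Mpo) and 2 lower (S100a8 and Ly6g) in GM-DC without LPS, and 1 and 5 with LPS. Their summed signal was 1762 to 1943 in GM-DC and 2438 to 2953 in GM-MF without LPS, and 1606 to 1819 and 3199 to 3541 with LPS. Of 2 measured monocyte markers Ccr2 was lower in GM-DC in both conditions and Cx3cr1 without LPS, with summed signals of 47.2 to 52.8 in GM-DC and 297 to 322 in GM-MF without LPS, and 49.0 to 55.3 and 97.9 to 104.6 with LPS. The part of such cells in the Cd14 and Tlr2 differences was not tested.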

How the data were processed

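The deposited table holds log2 values of 35556 probe sets on 12 arrays, and these deposited values come from RMA and R 3.0.2, as the submitters' processing notes give them. RMA settings are not given in the sources used here, and the base 2 was inferred from the range, 1.18 to 13.7. No filter or further scaling was applied. Scanner files were not analysed here, and low values are not read as absence.

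Of the probe sets, 21789 had 1 gene symbol in the platform annotation, 1621 several and 12146 none. Where probe sets shared a gene the brightest on average was taken, giving 19938 genes, and each of the 28 members had 1 probe set. limma 3.58.1 in R 4.3.3 fitted 4 group means on all 12 arrays (lmFit, contrasts.fit, eBayes, 8 residual degrees of freedom), two-sided, with Benjamini-Hochberg adjustment over all genes. On simulated data with 200 changed genes among 19938, the fit recovered 90 of 100 genes changed by 1 log2 unit and 100 of 100 changed by 2 for GM-DC minus GM-MF without LPS, and 82 and 100 for the interaction. Unchanged genes called in these 2 runs numbered 7 and 12. Values were drawn independently for each gene, and in the data 34.2% of genes were called without LPS. The recovery therefore checks the code and does not give the power for these data.

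The members and lists were chosen with earlier results of these data known. By rule every member is named, receptors and members with a called difference of 1 or more array by array, and of each pathway list up to 4 called genes per comparison. Marker genes beside a count were picked with their values in view.

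Every group carries the replicate numbers 1 to 3. Deviations from group means of same-numbered LPS and unstimulated arrays correlated at 0.119 to 0.363 in GM-DC and 0.104 to 0.257 in GM-MF, each pair over 0.1, and between cell types at -0.168 to 0.233. In GM-DC, however, replicates 1 and 2 correlated as well with each other's number (0.120 and 0.164), so only replicate 3 stood apart there. Each same-numbered pair passed 0.1, and the number was read as pairing within a cell type, from the data and not from the labels. In GM-DC that rule cannot tell the pairs of numbers 1 and 2 apart, so the pairing there is an assumption. Alternatives were 3 normalizations, a filter, averaged probe sets, eBayes with trend and robust, only the arrays compared, the replicate block, a block within cell type added after seeing the data, and leaving out each array.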

Additional observations from a re-analysis of the deposited data

Results flagged for a closer look

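For 4 members the response to LPS differed between GM-DC and GM-MF by the interaction term of limma, each more positive in GM-DC. These were Tlr2 (1.21 ± 0.20), Ticam2 (1.17 ± 0.30), Ikbke (1.07 ± 0.20) and Myd88 (0.74 ± 0.18), with 3 arrays per group. The interaction calls of Ticam2 and Myd88 were lost when single arrays were left out, as described above. Groups of 3 arrays were not tested for single outlying arrays.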

How the results depend on the processing

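Of the comparisons of single members, 1171 refits under another setting gave 20 that lost and 24 that gained a call. The 1680 refits without 1 array gave 67 and 9. In either kind, 0 refits changed direction where the main fit or the refit was called. Changes of sign in comparisons called in neither fit were not counted. Leaving out 1 array gave 24 to 25 members called for GM-DC minus GM-MF without LPS, 22 to 23 with LPS, 6 to 10 for LPS in GM-DC, 4 to 11 for LPS in GM-MF and 2 to 5 for the interaction, which was 2 without GM-DC LPS replicate 2. A fit of only the arrays compared called 6 members for LPS in GM-DC, against 11. That fit has fewer arrays to estimate the spread, and whether this lowered the count was not tested. The causes of the other changes were not tested either.

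With the replicate block over all 12 arrays, 26, 23, 10, 11 and 4 members were called in the 5 comparisons. With the replicate number as a block within each cell type, chosen after seeing the data, 12, 12 and 5 were called for LPS in GM-DC, LPS in GM-MF and the interaction, and the blocks changed no call of a member beyond those given for Tlr1, Tlr4, Unc93b1, Ticam2, Tlr12 and Map3k7. The total of all genes called stayed within 1.5 times in each comparison under every setting tried, but genes lower with LPS in GM-DC numbered 521 without GM-DC unstimulated replicate 1, 551 without GM-DC unstimulated replicate 2 and 592 without GM-DC LPS replicate 1, against 896. Array signal with no background call limits what can be read from Tlr1, Tlr3, Tlr6, Tlr7, Tlr8 and Cd180 in GM-DC and Tlr12 in GM-MF, and 3 arrays per group limit the precision.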
